A study of Homo sapiens with 20 samples.

Results

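A set of 191 genes was expressed in the CD47-deficient T lymphoblast line JinB8 at a level at least 8 times that in its WT counterpart, the Jurkat T lymphoblast line. Of these, 61 were at or under the limit of detection in WT, while others, such as ITGA6 at 21.1 CPM, were clearly detected there, so the set runs from genes near off to genes that were only lower. The genes were chosen by their level in each line from a table of 60719 genes. Counts-per-million values (CPM) were taken from the count of a gene and the total of its library, and a gene was kept where its mean over the 10 CD47- libraries was at least 1 CPM and at least 8 times its mean over the 10 WT libraries. Of the 14326 genes with a CD47- mean of at least 1 CPM, 214 passed both limits, and 23 of these were left out by name (cancer-testis antigen, zinc finger, histone and T cell receptor segment genes, and 4 single genes). The difference between the lines therefore chose the genes, and it is given below as a description with no test. Transcript isoforms and genome positions were not used in the choice. Time points and treatments (antibodies, TSP1) were not compared in it, but its means took in all of them. A change within a line could therefore help a gene to pass both limits.

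WT and CD47- cells were studied to ask how CD47, a receptor for the secreted protein thrombospondin-1 (TSP1), shapes the response of T cells to engagement of CD3 and CD28. JinB8 is 1 somatic mutant of Jurkat, so the loss of CD47 and other differences between 2 separately kept lines cannot be told apart. Both lines were sampled as untreated cells (UT) at 1 h and, at 1, 3 and 6 h, after antibodies to CD3 and CD28 (CD3+CD28; anti-CD28 at 4 μg/mL), after the antibodies with TSP1 at 1 μg/mL (CD3+CD28+TSP1) and after TSP1 alone. Each condition was sequenced once per line, which gave 20 libraries, and nothing in the labels says that the time points are separate cultures, so p-values measure the spread between these libraries, which may be technical.

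The WT libraries held 20483642 to 31737616 counts and the CD47- libraries 16107921 to 28525524, so that 3 counts, taken as the limit of detection in a library, correspond to between 0.0945 and 0.186 CPM. CD47 mRNA itself was 304 ± 38.8 CPM (SD, n = 10) in WT and 153 ± 9.78 CPM (SD, n = 10) in CD47- libraries, lower in every CD47- library but not absent. Of 16 T cell markers, 15 were at 10 CPM or more in every library of both lines. Of 71 markers of 7 other cell types, none was a member, 20 had a mean of at least 1 CPM in CD47- cells against 18 in WT, and 2 markers (KRT14, GP9) were at 0 in all CD47- libraries against 4 (GP9, PF4, PPBP, ELANE) in all WT libraries. The CD47- library of CD3+CD28+TSP1 at 3 h had the smallest total and stood apart. It held the highest value of 34.6% of the members, and of 34.3% of all genes at 1 CPM or more in CD47- cells. Without it, 171 of the 191 genes still met both limits, and PLXND1, NEK6 and LRRC43 were among the 20 that did not.

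By role, as assigned after values were seen, 79 of the genes fell into 12 small groups, described below, and 112 into none. SLIT and ROBO, semaphorin and plexin, and ephrin and Eph pairs are guidance systems first described in growing axons, in which a ligand on or from one cell steers another. Integrins bind matrix proteins such as laminin and collagen, and NOTCH ligands and the Hedgehog receptor PTCH1 act in signals between neighbouring cells. GATA2, LYL1, TEAD4 and RXRA are transcription factors, of which GATA2 and LYL1 are known for their part in blood progenitor cells. FSTL5 is a secreted follistatin-like protein, ECRG4 encodes the precursor of a secreted peptide, and ROBO1 is a receptor for SLIT proteins.

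Summed over the 191 genes, reads made up 1834 ± 95.1 CPM (SD, n = 10) in CD47- and 149 ± 11.5 CPM (SD, n = 10) in WT libraries, with ranges of 1742 to 2065 and 137 to 167. Fewer cells that express a gene and less of its RNA per cell cannot be told apart in these bulk samples. The median gene was at 3.15 CPM in CD47- and 0.191 CPM in WT cells, and the median ratio was 13.8. The ratio lay between 8 and 16 for 108 genes, between 16 and 32 for 50, and at 32 or more for 33, of which 6 were at 100 or more. For 61 genes the WT mean was at or under 3 counts per library, but no gene was at 0 in all WT libraries. The level in CD47- cells was 1 to 2 CPM for 62 genes, 2 to 10 for 90 and at least 10 for 39, and 5 genes held 34.1% of the summed CPM. In an edgeR test of the lines, 19.8% of 16327 genes tested were called higher and 20.6% lower in CD47- cells. The choice of the genes fixes the side on which they lie, so nothing is read from it.

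**Figure D1:**
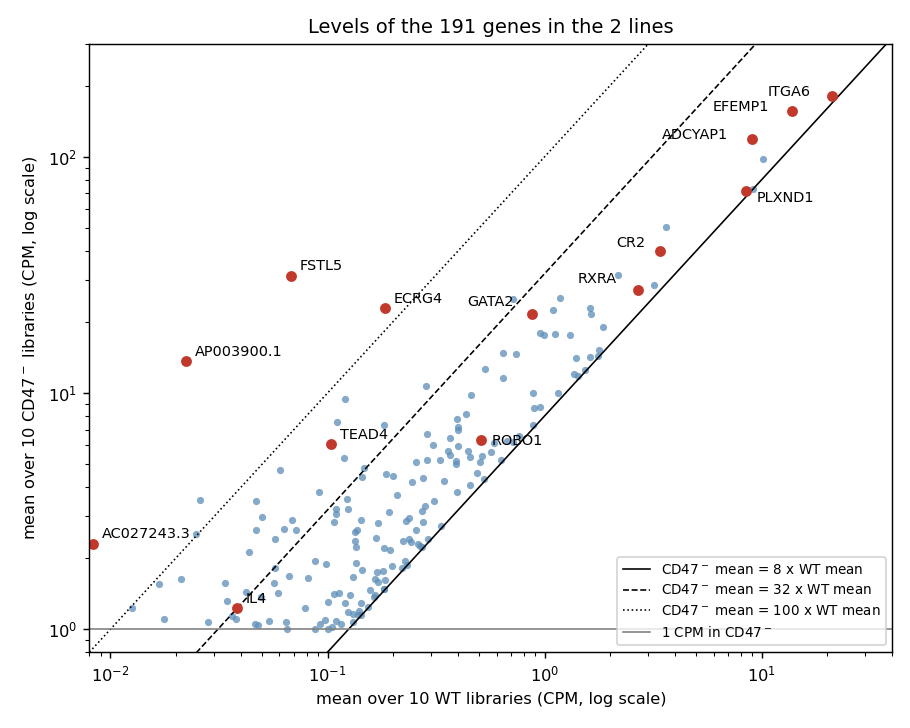
Mean CPM of each of the 191 genes over 10 WT libraries (horizontal, log scale) and over 10 CD47- libraries (vertical, log scale), 1 point per gene, with lines at ratios of 8, 32 and 100 and at 1 CPM. FSTL5, at 31.4 against 0.0679 CPM, lies far above the line of 100, while ITGA6, at 180 against 21.1 CPM, lies close to the line of 8.

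In 187 of the 191 genes the lowest CD47- library was above the highest WT library, as in 9.03% of all genes at 1 CPM or more in CD47- cells. The rule, which asks for a ratio of 8 between the means, nearly fixes this count, and nothing is read from it. The exceptions were TRPC6, KCNT1, FUT7 and STYK1, all 4 with low values in CD47- libraries at 1 h. TRPC6, a calcium-permeable channel, was at 0.285 to 0.480 CPM in the 4 CD47- libraries at 1 h, 2.47 to 3.17 CPM at 3 h and 4.61 to 4.92 CPM at 6 h, against a highest WT value of 0.347 CPM. Just inside the limit on the level were LRRC43 and NEK6, at 1.002 and 1.005 CPM, and just outside it CCDC198, MISP and IL6R, at 0.985, 0.977 and 0.896 CPM. Just inside the limit on the ratio were ITGA1, AC139491.8 and LINC02207, at 8.02, 8.04 and 8.07, and just outside it LINC01783, SPOCK2 and AIF1L, at 7.97, 7.97 and 7.95.

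FSTL5 was near off in WT. Its counts in the 10 WT libraries were 6, 0, 1, 3, 0, 1, 1, 2, 0 and 2, together 16. In CD47- libraries it was at 35.1, 28.6 and 31.2 CPM after CD3+CD28 at 1, 3 and 6 h, at 35.04, 22.4 and 31.6 CPM after CD3+CD28+TSP1, at 37.2, 27.3 and 29.7 CPM after TSP1, and at 35.6 CPM in UT. The lowest CD47- value was thus far above the highest WT value of 0.254 CPM, and the values at 3 h were the lowest under each treatment. The ratio of the means was 462, with an exact Poisson interval of 285 to 809 at 95% that covers counting error in WT only. FSTL5 lies on the minus strand of chromosome 4 (chr4:161383897-162164004, GRCh38).

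ECRG4 was at 24.6, 21.8 and 19.5 CPM after CD3+CD28 at 1, 3 and 6 h, at 24.9, 17.6 and 24.3 CPM after CD3+CD28+TSP1, at 26.4, 23.4 and 19.5 CPM after TSP1 and at 26.6 CPM in UT CD47- cells. Every WT library held between 3 and 8 counts of it, 44 in all, or 0.183 ± 0.0596 CPM (SD, n = 10). The values of the lines did not overlap, and their ratio was 125 (92.9 to 172).

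ROBO1 was at 4.84, 5.51 and 8.87 CPM after CD3+CD28 at 1, 3 and 6 h, at 5.09, 8.38 and 8.95 CPM after CD3+CD28+TSP1, at 5.15, 4.85 and 7.41 CPM after TSP1 and at 4.28 CPM in UT CD47- cells. In WT it was at 0.508 ± 0.331 CPM (SD, n = 10), from 0.0414 CPM after TSP1 at 1 h to 1.08 CPM after TSP1 at 6 h. The highest values of both lines were thus among the 6 h libraries or, in CD47- cells, also after CD3+CD28+TSP1 at 3 h. ROBO1 spans chr3:78597239-79767998 (GRCh38, minus strand).

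The promoters of these 3 genes, which gave the set its leading genes, are shown with every CpG dinucleotide in capitals, since they differ in CpG content. Sequences are from RefSeq on GRCh38.p14, from 250 bases before to 50 after the annotated start, 5′ to 3′ on the gene's strand.
FSTL5 (chr4:162163951-162164250, minus strand): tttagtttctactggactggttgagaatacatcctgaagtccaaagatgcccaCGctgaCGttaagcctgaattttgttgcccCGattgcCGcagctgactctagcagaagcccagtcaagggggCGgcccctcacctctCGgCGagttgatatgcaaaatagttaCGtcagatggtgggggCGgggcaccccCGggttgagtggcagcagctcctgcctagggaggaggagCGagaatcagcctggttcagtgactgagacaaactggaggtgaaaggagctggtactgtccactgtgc
ECRG4 (chr2:106065438-106065737, plus strand): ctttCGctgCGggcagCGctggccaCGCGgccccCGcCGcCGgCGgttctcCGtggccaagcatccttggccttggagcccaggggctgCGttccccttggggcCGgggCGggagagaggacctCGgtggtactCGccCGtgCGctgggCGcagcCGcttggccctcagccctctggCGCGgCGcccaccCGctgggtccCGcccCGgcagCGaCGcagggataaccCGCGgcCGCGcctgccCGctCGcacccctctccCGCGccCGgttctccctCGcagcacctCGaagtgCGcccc
ROBO1 (chr3:79767949-79768248, minus strand): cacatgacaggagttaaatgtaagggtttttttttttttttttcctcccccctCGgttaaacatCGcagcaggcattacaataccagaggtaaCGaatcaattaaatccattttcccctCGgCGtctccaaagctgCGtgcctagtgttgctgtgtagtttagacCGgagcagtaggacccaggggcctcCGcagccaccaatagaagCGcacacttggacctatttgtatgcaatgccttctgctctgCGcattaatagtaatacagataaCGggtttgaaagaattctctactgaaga
The ECRG4 window held 39 CpG at 77% GC, and the windows of FSTL5 and ROBO1 held 11 each at 55.7% and 45.3% GC. A promoter was matched for 120 of the 191 genes. Their median CpG content, as observed over expected from the C and G content, was 0.688, against 0.846 for 10156 other genes at 1 CPM or more in CD47- cells and 0.580 for all 27305 promoters in the table. A ratio under 0.4 was found for 31 of the 120 (25.8%), for 10.3% of the other genes and for 41.0% of all promoters. Neither set of promoters was matched to the members for level. Short motifs were searched on both strands as AGATAA (the GATA core), GGAATG (TEAD), CAGCTG (an E-box) and AGGTCA (the nuclear receptor half-site), none of which contains another. AGATAA was in 6.67% of the members' windows, in 4.88% of those of the other genes at 1 CPM or more and in 10.5% of all promoters. The shares were 10.8%, 10.2% and 14.0% for GGAATG, 19.2%, 16.5% and 17.7% for CAGCTG, and 14.2%, 9.74% and 13.9% for AGGTCA, so the order for AGATAA and GGAATG depends on the promoters compared.

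The isoform table showed that nearly all ECRG4 counts fell on a transcript that starts inside the gene. ECRG4-204 (ENST00000479337.1), annotated as a retained intron of 617 bases, took 99.2% ± 0.748 (SD, n = 10) of ECRG4 counts in CD47- libraries, from 284 to 759 counts per library. ECRG4-201, the protein-coding isoform at whose start the promoter window above lies, had 0 to 6.59 counts, and the protein-coding isoforms ECRG4-202 and ECRG4-203 were at 0 in all 20 libraries. The 44 WT counts were on ECRG4-204 too, with 3 to 8 per library. ECRG4-204 starts at position 106073818 of chromosome 2 (GRCh38), 68 bases before an exon that the protein-coding isoforms share, so it lacks the exons upstream of it. The annotated start was not measured by these data, since RSEM divides reads among annotated isoforms. The region from 100 bases before that start is shown with the 68 intron bases that set ECRG4-204 apart in capitals and the first 100 bases of the shared exon after them.
ECRG4-204 start (chr2:106073718-106073985, plus strand): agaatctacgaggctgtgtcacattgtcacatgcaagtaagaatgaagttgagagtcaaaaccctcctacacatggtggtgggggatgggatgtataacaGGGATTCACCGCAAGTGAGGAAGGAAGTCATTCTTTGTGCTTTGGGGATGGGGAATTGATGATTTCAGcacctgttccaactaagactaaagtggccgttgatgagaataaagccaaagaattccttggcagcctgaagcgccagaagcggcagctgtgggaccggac

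**Figure D2:**
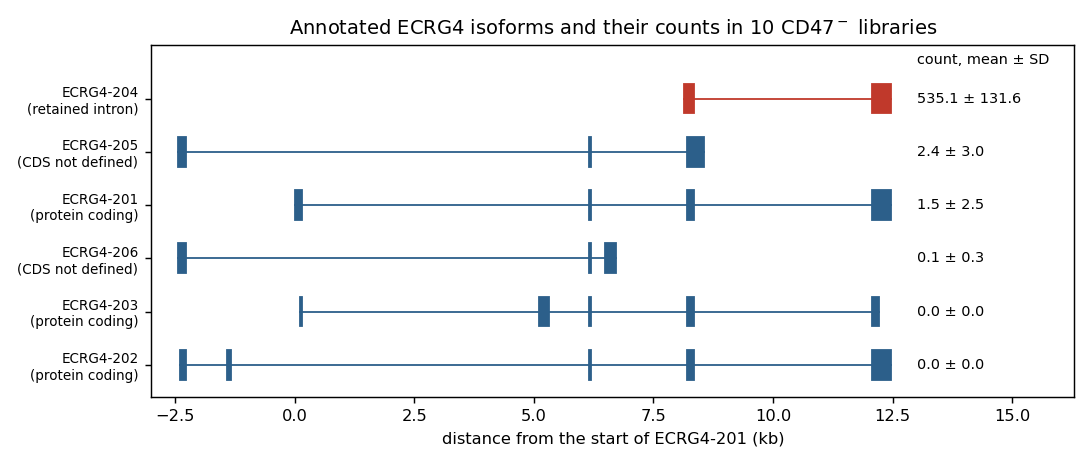
Exons (boxes) of the 6 annotated ECRG4 isoforms against the distance from the start of ECRG4-201 in kb, with the mean ± SD of each isoform's count over 10 CD47- libraries at the right. ECRG4-204, in red, holds nearly all counts and begins between the upstream exons and the last exon.

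Counts of FSTL5, by contrast, fell mostly on a protein-coding transcript. FSTL5-202, 4757 bases long, took 80.6% ± 1.41 (SD, n = 10) of the counts in CD47- libraries. Divided by transcript length its share was 47.6%, and it was still the most abundant isoform. Of ROBO1's 13 isoforms, the most abundant on average took 30.4% ± 24.3 (SD, n = 10) and led in 5 of 10 libraries, so the leading isoform changed from library to library. Of the 169 genes with several annotated isoforms, the most abundant took a median of 73.0% of the counts, was the same in every CD47- library used for 90 genes, and was protein-coding for 115. It was a retained intron for 6 genes, among them ECRG4, GOLGA8S and PCK1. In 71 genes with at least 10 counts in 3 or more WT libraries, the same isoform led in WT for 59.

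Secreted ligands were 5 of the members. ADCYAP1 encodes the neuropeptide PACAP, which signals through adenylyl cyclase, and was at 119 ± 21.1 CPM (SD, n = 10) in CD47- and 9.03 ± 1.86 CPM (SD, n = 10) in WT cells. IL4, the signature type 2 cytokine, was at only 1.23 ± 0.429 CPM (SD, n = 10) against 0.0381 CPM, which rests on 9 WT counts. IL18, an inflammatory cytokine, was at 2.89 against 0.0683 CPM, and SOSTDC1, an inhibitor of BMP and WNT signals, at 2.64 against 0.0466 CPM. Among 11 matrix and other secreted proteins, EFEMP1 (fibulin-3) was at 156 ± 15.3 CPM (SD, n = 10) against 13.7 ± 1.39 CPM (SD, n = 10), and CRISPLD1 at 9.41 ± 0.908 against 0.121 ± 0.0755 CPM (SD, n = 10). The ratios of these 11 ranged from 8.66 for ADAMTS19, a secreted protease, to 462 for FSTL5.

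Adhesion receptors took the largest share of reads among the groups made by role, with 277 CPM summed over 7 genes. ITGA6, the α6 chain of laminin-binding integrins, ranged from 138 to 217 CPM in CD47- and from 14.1 to 32.4 CPM in WT libraries. ITGA1, a collagen-binding chain, was at 73.0 ± 6.76 against 9.11 ± 1.09 CPM (SD, n = 10). Among guidance genes, PLXND1, a semaphorin receptor, was at 71.4 ± 25.8 against 8.42 ± 1.61 CPM (SD, n = 10). PLXNB2 was at 17.8 ± 6.69 against 1.11 ± 0.383 CPM, and its ligand SEMA4C at 14.2 ± 3.504 against 1.62 ± 0.576 CPM (SD, n = 10), so a receptor and its ligand were both in the set. The NOTCH ligands JAG1 and DLL1 were at 11.8 against 1.43 and 5.43 against 0.517 CPM, and PTCH1 at 10.0 ± 2.85 against 0.879 ± 0.247 CPM (SD, n = 10).

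Genes for immune receptors and innate immune proteins numbered 12. CR2, the complement receptor known from B cells, led them at 39.9 ± 11.3 against 3.39 ± 1.65 CPM (SD, n = 10). The inflammasome sensor NLRP3, the chemokine receptor CCR2, the lectins CLEC4A and SIGLEC12, and the transcription factor IRF5 lay between 2.36 and 5.62 CPM in CD47- cells. The summed markers of B cells and of myeloid cells, none of them members, were lower in CD47- cells. In sum, 8 B cell markers were at 8.68 to 16.9 CPM in CD47- and 49.1 to 70.5 CPM in WT libraries. For 17 myeloid markers the sums were 56.2 to 75.4 and 86.6 to 102 CPM. Gene by gene, edgeR called 0 higher and 2 lower of 3 tested B cell markers. Of 4 tested myeloid markers it called 1 higher and 1 lower. The summed markers of endothelium and of fibroblasts were higher. They were at 92.7 to 135 against 35.5 to 56.6 CPM for 8 endothelial markers, mostly PECAM1, and at 36.3 to 47.0 against 13.5 to 24.6 CPM for 9 fibroblast markers. Of 2 tested endothelial markers 1 was called higher, and of 4 tested fibroblast markers 3 were, with 0 lower in both lists. The endothelial sum thus rests mostly on 1 gene, and these lists are too small to set beside the shares of all genes. The summed ranges of the epithelial, erythroid and megakaryocyte, and neural markers overlapped between the lines, at 2.10 to 4.37 against 1.62 to 2.79, 6.56 to 26.8 against 3.90 to 13.8 and 14.8 to 26.4 against 11.4 to 16.5 CPM. The part of these markers' cell types in the levels of the members was not tested. Of the transcription factors, GATA2 was at 21.7 ± 8.24 against 0.876 ± 0.791 CPM, RXRA at 27.3 ± 14.0 against 2.68 ± 1.95 CPM, TEAD4 at 6.07 ± 1.15 against 0.104 ± 0.0430 CPM and LYL1 at 6.01 ± 1.25 against 0.307 ± 0.188 CPM (SD, n = 10). ADCY1, a calcium-stimulated adenylyl cyclase, was at 22.9 ± 6.89 against 1.62 ± 0.512 CPM (SD, n = 10), next to the phosphodiesterase PDE9A and the kinase PRKG2, which act on or respond to cyclic GMP. All 3 genes of the TMEM132 family in the set, TMEM132A, TMEM132D and TMEM132E, had ratios of 18.8, 42.0 and 12.7.

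Of the 191 genes, 143 were protein-coding (74.9%, against 83.6% of other genes at 1 CPM or more in CD47- cells), 39 were lncRNAs (20.4% against 10.4%) and 9 were pseudogenes. The other genes were not matched to the members for level, and the part of level in these shares was not tested. The lncRNA AP003900.1 on chromosome 21 was at 13.6 ± 2.53 CPM in CD47- cells (SD, n = 10) and had 6 counts in all WT libraries. That is under the limit of detection, so its ratio of 609 has a wide interval (280 to 1660) that overlaps that of FSTL5, and with the WT level raised to 3 counts per library it was at least 109-fold higher, against at least 252-fold for FSTL5. The 11 genes of multicopy families were GOLGA8O, GOLGA8N, GOLGA8S, GOLGA8R and GOLGA8DP on chromosome 15, FRG2B and FRG2C, NBPF3, and AC139491.2, AC139491.6 and AC139491.8 within 42.1 kb of chromosome 5. Their copies are near-identical in parts, so the counts may be divided unevenly among them. Of the members, 29 (15.2%) had another member within 100 kb, against 3.10% of other genes at that level, and they formed 14 groups of neighbours. Among these were NLRP3 with GCSAML, KRT1 with KRT72, TEAD4 with the lncRNA AC125807.2, and EGFL7 with DIPK1B. GATA2 with GATA2-AS1 and ADCYAP1 with AP000894.2 overlap on opposite strands, and since the strand setting of the counting was not given in the sources used here, their reads may not be separable. The members lay on all chromosomes but Y and the mitochondrial genome, with at most 21 on one, chromosome 1.

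Genes of the same pathways that were not members gave a mixed picture. Over all pathway and marker lists, 154 such genes could be tested, the median log2 difference of all genes being -0.01, and edgeR called 56 higher and 33 lower in CD47- cells, where 19.8% of all genes were higher and 20.6% lower. The lists are small, and no difference between a list and the other genes was tested. Of 10 tested SLIT and ROBO genes, 3 were higher (ROBO3, SLIT2, SRGAP3) and 3 lower (SLIT1, USP33, ENAH). SLIT1, a ligand of ROBO1, fell by 1.36 on the log2 scale, from 94.2 to 39.9 CPM. Of 15 tested semaphorin and plexin genes 9 were higher and 0 lower, with PLXNC1 at 1.99 and PLXNB1 at 1.91 log2 and a median of 0.60. All 6 other GIMAP genes of 7q36 were tested and 5 were higher, with GIMAP7 at 1.77 log2 and a median of 1.32, beside the member GIMAP8 at 11.6 against 0.645 CPM. Of 10 tested Hedgehog genes, SMO was higher and GLI3 lower. GLI1, a target of the pathway like PTCH1, was at 1.99 against 2.21 CPM. Of 15 tested genes around TEAD4, 3 were higher and 5 lower, and TEAD1 fell by 1.21 log2. Of 12 tested progenitor factors 5 were higher and 3 lower, of 9 tested genes of the type 2 cytokine list 4 were higher and 1 lower, and IL5 and IL13, neighbours of IL4, were at 0.0662 and 1.21 CPM in CD47- and 0.0218 and 0.789 CPM in WT cells. Of 4 tested adenylyl cyclases 3 were higher, of 3 retinoid receptors 2 were higher, and of 3 GOLGA8 genes 2 were lower. Of 12 FRG2 and NBPF genes 4 were higher and 4 lower, of 14 early activation genes 2 were higher and 6 lower, and of 16 T cell markers 6 were higher and 3 lower.

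Time after the start of treatment was compared within CD47- cells. The choice of the genes did not compare the time points, but its means took in all of them. Of 180 members tested in edgeR, 35 (19.4%) rose at 6 h against 1 h in CD47- cells and 43 (23.9%) fell, where 26% of all 16327 genes rose and 27% fell. At 3 h against 1 h 30 (16.7%) rose and 25 (13.9%) fell, where 18% of all genes rose and 20.1% fell. The difference between these shares was not tested, and the members that follow are described one by one. The median log2 change of the members was 0.03 at 6 h, with quartiles of -0.64 and 0.56, and 0.01 at 3 h. In all 33 genes were called at both times, 17 higher at both, 14 lower at both, and 2, EFEMP1 and GATA2-AS1, in opposite directions. The share of all genes called at both times is not given here, so nothing is read from these counts. Leaving out the CD47- CD3+CD28 library at 1 h lowered the calls at 6 h from 78 to 50 and at 3 h from 55 to 30, leaving out CD3+CD28 at 6 h lowered those at 6 h to 51, and leaving out CD3+CD28+TSP1 at 1 h lowered those at 3 h to 36.

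KIFC3, a motor protein that moves to the minus end of microtubules, had the largest rise among the genes named by their p. It was at 0.760, 2.28 and 3.96 CPM after CD3+CD28 at 1, 3 and 6 h, at 0.652, 2.86 and 5.34 CPM after CD3+CD28+TSP1, and at 0.622, 2.20 and 4.18 CPM after TSP1. Each treatment gave the same order, and the log2 change at 6 h was 2.72 (SE 0.27, edgeR adjusted p = 1.8e-06). RXRA, the shared partner of many nuclear receptors, was at 10.9, 30.7 and 38.2 CPM after CD3+CD28, at 13.2, 38.4 and 41.1 CPM after CD3+CD28+TSP1 and at 8.76, 32.1 and 45.2 CPM after TSP1. No 1 h value of RXRA, UT included at 14.5 CPM, reached any 3 h value, and the log2 change at 6 h was 1.94 (SE 0.20, edgeR adjusted p = 2.6e-06). SCN7A, an atypical sodium channel, rose from 9.82 ± 0.801 CPM at 1 h to 22.3 ± 4.62 at 3 h and 23.6 ± 1.81 CPM at 6 h (SD, n = 3 treatments). GIMAP8 rose from 5.65 ± 0.630 to 16.6 ± 1.77 CPM at 3 h (SD, n = 3), and TMIE, a part of the mechanotransduction channel of hair cells, from 1.49 ± 0.335 to 6.47 ± 0.629 CPM at 6 h (SD, n = 3). ITGA6 rose by 0.53 log2 at 6 h (SE 0.07, edgeR adjusted p = 1.5e-05), from 150 ± 10.6 to 215 ± 3.16 CPM (SD, n = 3).

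BTBD11 had the smallest p of the genes that fell. It was at 18.8, 10.9 and 5.39 CPM after CD3+CD28 at 1, 3 and 6 h, at 21.6, 10.7 and 4.67 CPM after CD3+CD28+TSP1 and at 18.9, 9.83 and 4.31 CPM after TSP1, with UT at 20.3 CPM. The 3 time points did not overlap, and the log2 change at 6 h was -2.04 (SE 0.13, adjusted p = 3.1e-08 in edgeR). LITAF, a protein of late endosomes, was at 10.2 ± 0.246 CPM at 1 h, 6.999 ± 0.821 at 3 h and 2.51 ± 0.248 CPM at 6 h (SD, n = 3). The neighbouring genes AC139491.2 and AC139491.6 fell by 2.19 and 1.56 on the log2 scale at 6 h, and TRIM7, an E3 ubiquitin ligase, by 2.32. CR2 was lowest at 3 h, with a log2 change of -1.04 (SE 0.10, adjusted p = 5.3e-06 in edgeR), from 53.1 ± 4.34 to 28.6 ± 3.43 CPM, and was at 34.8 ± 0.9796 CPM at 6 h (SD, n = 3). GATA2 was at 24.4 ± 5.41, 27.3 ± 5.06 and 11.1 ± 1.61 CPM (SD, n = 3), and fell by 1.11 on the log2 scale at 6 h.

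**Figure D3:**
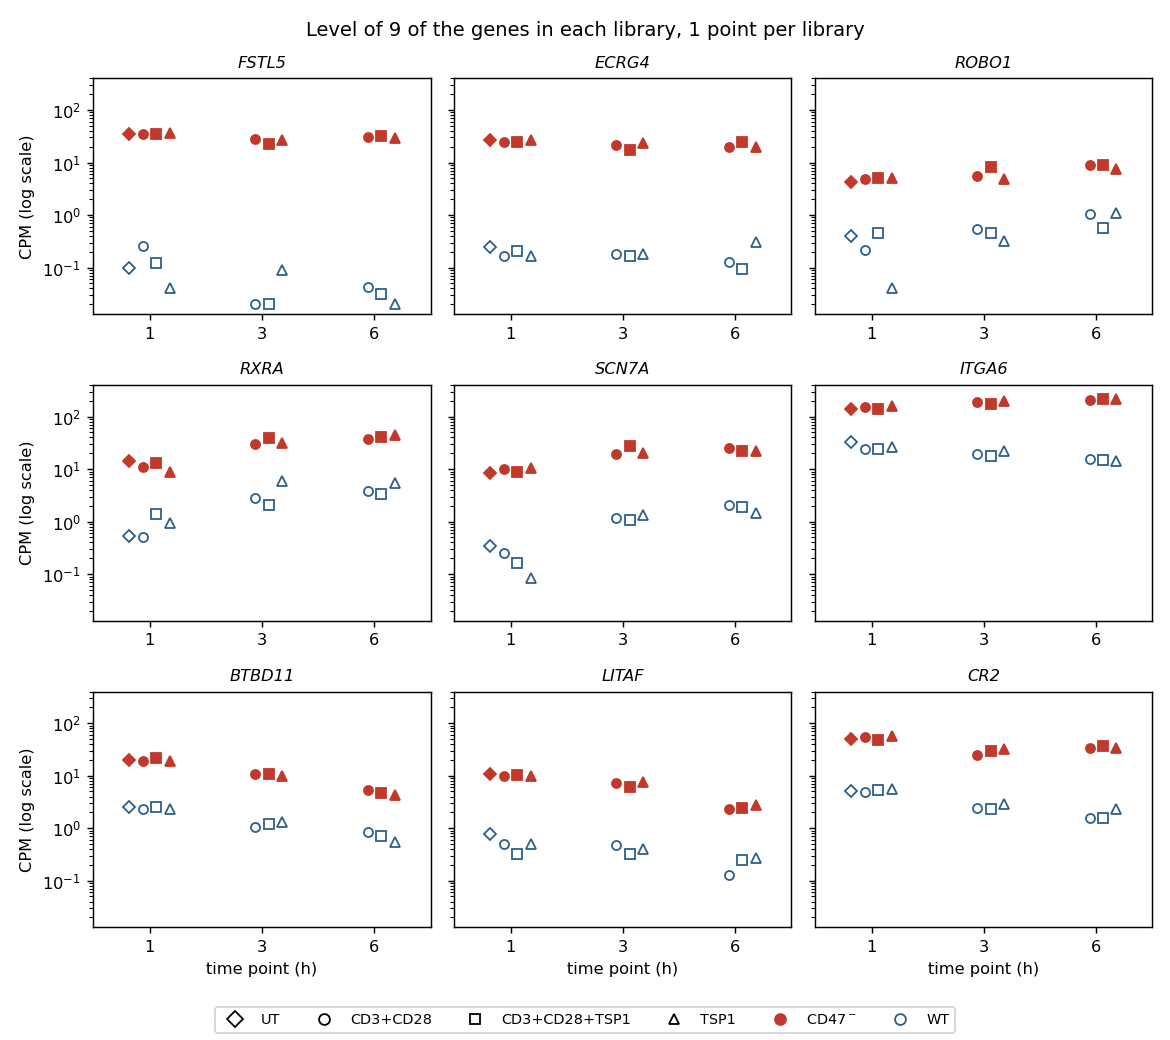
CPM (log scale) of 9 of the genes at 1, 3 and 6 h, 1 point per library, filled red for CD47- and open blue for WT, with a marker for each treatment and libraries without a count drawn at 0.02 CPM. RXRA and SCN7A rise and BTBD11 and LITAF fall with time in CD47- cells. There FSTL5 ranges from 22.4 to 37.2 CPM and ECRG4 from 17.6 to 26.6 CPM. With all libraries, both were called lower at 3 h and neither was called at 6 h.

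With all 20 libraries, each of the 3 leading genes was called at 1 of the times. The call of FSTL5 held without each of the 10 CD47- libraries, and the calls of ECRG4 and ROBO1 did not. The UT library has a term of its own in the model, so the fit without it is no check of a change with time. FSTL5 at 3 h was at -0.59 log2 with and without UT. FSTL5 fell by 0.59 log2 at 3 h (SE 0.15, adjusted p = 0.0065 in edgeR) and was at -0.21 (SE 0.15, adjusted p = 0.26) at 6 h. ECRG4 fell by 0.40 at 3 h (SE 0.14, edgeR adjusted p = 0.041) and was at -0.25 (SE 0.14, adjusted p = 0.16) at 6 h. ROBO1 rose by 0.75 at 6 h (SE 0.27, edgeR adjusted p = 0.032) and was at 0.14 (SE 0.27) at 3 h. Without the CD47- CD3+CD28+TSP1 library at 3 h, the change at 3 h was -0.43 for FSTL5, still called, and -0.20 for ECRG4 (SE 0.12, edgeR adjusted p = 0.20). In that fit ECRG4 was called at 6 h instead, at -0.26 (SE 0.099, edgeR adjusted p = 0.036). Without 1 library the 6 h change of ECRG4 ranged from -0.43 to -0.14 and was called in 2 of 10 fits. The call of ECRG4 at 3 h was lost without any one of 6 of the 10 libraries. That of ROBO1 at 6 h was lost without any one of 5, with adjusted p up to 0.12 in edgeR.

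By role, the changes ran in both directions, and the groups are too small to set their counts against the shares of all genes (26% higher and 27% lower at 6 h). Of 6 guidance genes, PLXND1, EPHA10 and ROBO1 rose at 6 h and PLXNB2 and SEMA4C fell, by 0.95 and 0.70 on the log2 scale. Of 5 secreted ligands none rose, and IL18, SOSTDC1 and ADCYAP1 fell by 1.45, 0.80 and 0.54. Of 11 matrix and other secreted proteins 4 rose at 6 h, among them PAPPA, a protease of IGF-binding proteins, by 2.10, and SPARCL1 and HSPG2 fell by 1.74 and 0.96. Of 12 immune genes CLEC4A and SIGLEC12 rose by 2.17 and 0.80, and CR2, LITAF, IRF5 and S1PR5 fell. Of 7 transcription factors RXRA rose and GATA2 and ZBTB7B fell, while TEAD4 and LYL1 were at 0.28 (SE 0.16) and -0.05 (SE 0.18). Of 11 multicopy genes 5 fell and 0 rose at 6 h, GOLGA8S and GOLGA8DP among them. None of JAG1, DLL1 and PTCH1 was called at either time. BMPR1B, a BMP receptor grouped with them, fell by 1.36 log2 at 3 h (SE 0.31, edgeR adjusted p = 0.0041) and was not called at 6 h. Of 12 tested genes with ratios of 60 or more, 3 fell at 6 h, AC027243.3 by 1.04, DYDC2 by 1.01 and GOLGA8S by 1.65 on the log2 scale, and 9 were not called, FSTL5, CRISPLD1, RFLNA and AP003900.1 among them. PLXND1 rose by 0.80 at 3 h (SE 0.13), and by 0.64 (SE 0.12) without the CD3+CD28+TSP1 library, in which it stood at 136 CPM.

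Antibodies and TSP1 gave no call among the members. In CD47- cells edgeR called 0 of 180 members for CD3+CD28+TSP1 against TSP1 over 3 time points, 0 for CD3+CD28+TSP1 against CD3+CD28 and 0 for CD3+CD28 against UT, each beside 0% of all genes in either direction. DESeq2 and limma voom also called 0 members. In the contrasts without UT neither tool called any gene. For CD3+CD28 against UT, which rests on 1 UT library, DESeq2 called a few genes, none of them members, and limma voom called none. At an unadjusted p under 0.05, in the same order of contrasts, edgeR had 8, 6 and 3 members (4.44%, 3.33% and 1.67%), below the 16.1%, 10.8% and 4.02% of all genes. DESeq2 had 5, 2 and 2 (2.78%, 1.11% and 1.11%, against 13.8%, 9.1% and 3.04% of all genes), and limma voom 13, 6 and 4 (7.22%, 3.33% and 2.22%, against 14.1%, 8.95% and 4.45%). The difference between these shares was not tested. For FSTL5, CD3+CD28+TSP1 differed from TSP1 by -0.16 log2, with an interval of 2 SE from -0.45 to 0.14, so that a change of 2-fold lay outside it. For ECRG4 the difference was -0.11 (-0.40 to 0.17), and for ROBO1 0.27 (-0.27 to 0.82). The addition of TSP1 to the antibodies differed by -0.17 (-0.46 to 0.12) for FSTL5, by -0.04 (-0.33 to 0.25) for ECRG4 and by 0.16 (-0.38 to 0.70) for ROBO1. The smallest p was that of PLXNB2 for CD3+CD28+TSP1 against TSP1, at 0.43 log2 (SE 0.13, edgeR adjusted p = 0.28). UT was sampled once, so CD3+CD28 against UT rests on 1 UT library. In WT cells, CD3+CD28+TSP1 against TSP1 called 0.0919% of all genes higher and 0% lower, and no count of members is given there, since most passed the filter on low counts only through the CD47- libraries.

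**Figure D4:**
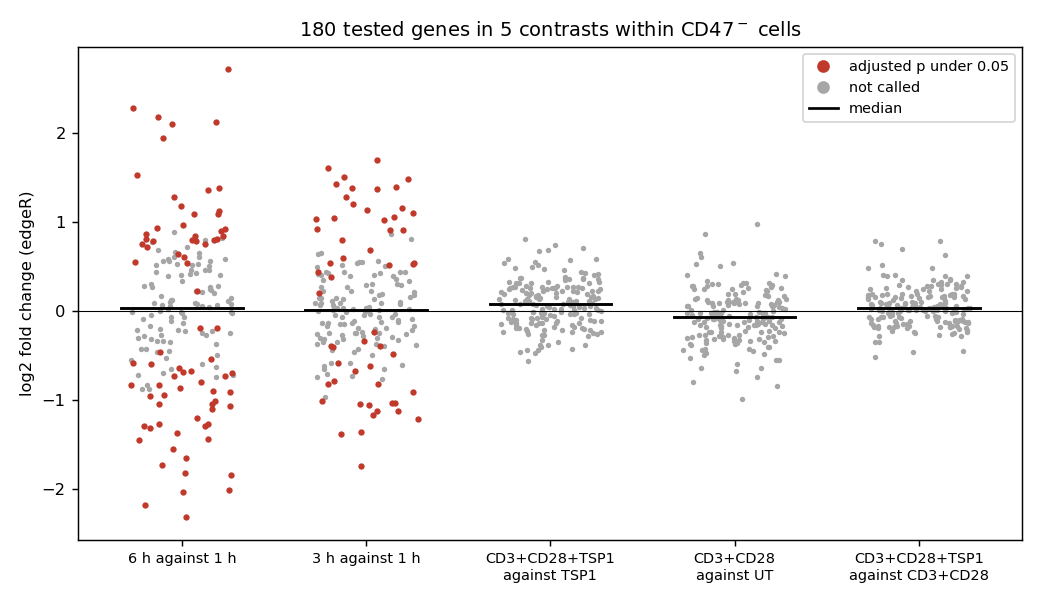
Log2 fold change (edgeR) of the 180 tested genes in 5 contrasts within CD47- cells, 1 point per gene, red where the adjusted p was under 0.05, with the median as a bar. Calls occur at 6 h (78 genes) and 3 h (55 genes) against 1 h and in none of the 3 contrasts of treatments.

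The low levels of these genes in WT cells limit what can be said of their changes there. Of the 180 tested members, 152 passed the filter on low counts only through the CD47- libraries, and 28 would have passed on the WT libraries alone. Only these 28 are compared between the lines. The means in the rule took in all time points, so a change with time that differed between the lines could help a gene to pass. The comparison is thus not independent of the choice, and its counts are a description. At 6 h against 1 h in WT, 6 of them rose and 11 fell, where 25.7% of all genes rose and 24.8% fell. At 3 h 4 rose and 10 fell, where 16.9% of all genes rose and 17.4% fell. In both lines 10 of the 28 were called at 6 h, 8 of them in the same direction (34.7% of all genes) and 2 in opposite directions (1.66% of all genes). A test of the difference between the lines in the change from 1 h to 6 h called 5 of the 28 more positive in CD47- cells, where 6.46% of all genes were, and 4 more negative, where 10.2% were. For the change from 1 h to 3 h it called 2 more positive and 1 more negative, where 2.02% and 2.25% of all genes were.

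ITGA6 had the smallest p of the named genes in this test. In WT it was at 23.9, 19.6 and 15.7 CPM after CD3+CD28 at 1, 3 and 6 h, at 23.8, 18.04 and 14.6 CPM after CD3+CD28+TSP1 and at 26.4, 22.6 and 14.1 CPM after TSP1. The order was thus downward under each treatment in WT and upward under each in CD47- cells. It fell by 0.79 on the log2 scale in WT and rose by 0.53 in CD47- cells, a difference of 1.33 (SE 0.10, edgeR adjusted p = 2.9e-06). PLXND1 rose by 0.54 in CD47- cells and fell by 0.40 in WT at 6 h, a difference of 0.94 (SE 0.20, edgeR adjusted p = 0.0063). ITGA6 and PLXND1 both lay close to the limit on the ratio, PLXND1 at 8.49. The means in the rule took in all time points, so a rise in CD47- cells and a fall in WT helped both genes to pass. Nothing is therefore read from the direction of these differences. SCN7A, GATA2 and KIFC3 were not among the 28, their WT values rest on few counts, and the lines were not compared for them. CR2 fell by 0.60 in CD47- and by 1.62 in WT cells, a difference of 1.02 (edgeR adjusted p = 0.0010). RXRA and BTBD11 changed by 1.94 and -2.04 in CD47- and by 2.09 and -1.83 in WT cells, and the lines were not called different for them. The difference was -0.15 for RXRA, with an interval of 2 SE from -0.87 to 0.58, and -0.20 for BTBD11, from -0.68 to 0.28.

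**Figure D5:**
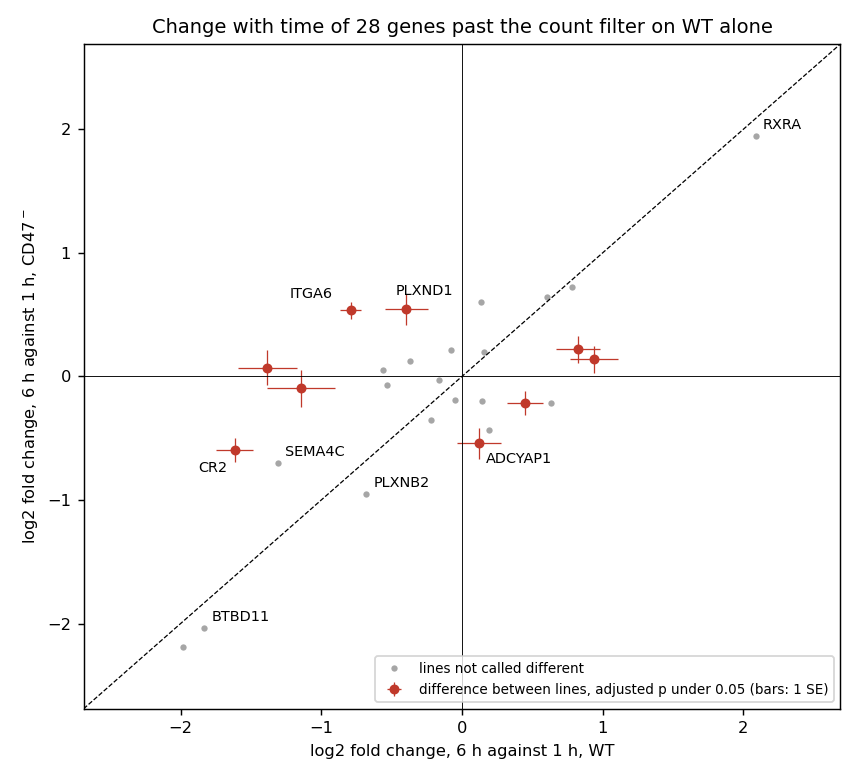
Log2 fold change at 6 h against 1 h in WT (horizontal) and CD47- cells (vertical) of the 28 genes that pass the filter on low counts in WT libraries alone, 1 point per gene, with the line of equal change dashed. In red are the 9 genes for which the change differed between the lines (adjusted p under 0.05), with bars of 1 SE. ITGA6 and PLXND1 lie in the quadrant of a fall in WT and a rise in CD47- cells. The choice of the genes is not independent of this comparison.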

How the data were processed

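RNA was sequenced from 10 WT and 10 CD47- Jurkat libraries. According to the methods and the labels, reads were trimmed by the authors (Cutadapt 1.18), mapped to GRCh38 (STAR 2.4.2a) and assigned to GENCODE 36 genes (RSEM 1.3.3). Both deposited tables, of 60719 genes and of 232184 isoforms, give RSEM expected counts without scaling for depth or length. Of the columns in each file, 2 match none of the samples and were left unused.

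The members and gene lists were chosen with earlier results of these data known. Role groups, the test of the difference between the lines in the change with time and the filter on WT libraries alone were added after values were seen. CPM used the column sum of each library. Expected counts were rounded for edgeR 4.0.16 (R 4.3.3), and genes were kept by filterByExpr (minimum count 10, total 15), which left 16327 genes and 180 members. Libraries were scaled by TMM, and quasi-likelihood tests were adjusted by Benjamini-Hochberg with a threshold of 0.05. One model of 20 libraries had 1 level per treatment within a line plus effects of 3 and 6 h per line, with 8 residual degrees of freedom. Lines were compared with line as the only term. Libraries of the 2 lines matched for treatment and time were taken as pairs from the labels, and their deviations correlated between 0.12 and 0.65. The test was tested on drawn data and called 85% of genes changed 2-fold and 98% of those changed 4-fold at 6 h in CD47- cells, over 8000 genes. It also called 8 unchanged genes. The drawn genes had an average level above 1 CPM over all 20 libraries, and no other change with time or treatment was put in. These shares therefore do not hold for members under that average. Alternatives were DESeq2 1.42.0, limma 3.58.1 with voom on quantile-normalized counts, upper-quartile factors, other filters and each library left out.

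Named genes were FSTL5, ECRG4 and ROBO1, the 10 highest in CD47- CPM, the 10 largest ratios with the WT mean raised to 3 counts per library where it was lower, up to 5 called per direction and contrast with the smallest p, those at the thresholds (1 gene there is not reported here), members of the lists and members with near-identical copies. TRPC6, KCNT1, FUT7, STYK1, PAPPA, CLEC4A and others named only by role or position were chosen after their values were seen. Positions and isoform lengths came from GENCODE version 44, matched by identifier without version for all 191 members, and promoters from RefSeq. Isoform shares used libraries with at least 10 counts of the gene. Matplotlib drew the figures.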

Additional observations from a re-analysis of the deposited data

Results flagged for a closer look

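In the CD47- library of CD3+CD28+TSP1 at 3 h, 3 values lay far above the other 9 CD47- libraries: PLXND1 at 135.7 CPM (next 85.8), TMEM132E at 2.607 CPM (next 1.68) and the summed CPM of the members at 2065 (next 1878). In all, 55 groups of 10 libraries were checked in this way, and chance flags about 1 in 20. The library also had the smallest total, and its part in the changes at 3 h was not tested beyond leaving it out.

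The change with time differed between CD47- and WT cells, by the edgeR test of the difference, for 4 named members. At 6 h against 1 h the log2 change in CD47- minus that in WT was 1.326 for ITGA6, 1.019 for CR2, 0.9379 for PLXND1 and -0.6637 for ADCYAP1. At 3 h it was 0.5898 for ITGA6 and 0.7654 for PLXND1. PLXND1 met the limits of the rule only with the CD47- CD3+CD28+TSP1 library at 3 h, and these differences were not fitted without that library. The choice of the genes, by means over all time points, is not independent of these differences. Members that passed the filter on low counts only through the CD47- libraries were left out of this comparison.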

How the results depend on the processing

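All 20 log2 changes with time of the genes named by their p kept their direction and their side of the threshold in 538 of 538 values under the alternatives, the highest adjusted p being 0.0078. They were picked for the smallest p, so this says little of the other calls. Of the leading genes, which are not among these 20, ECRG4 at 3 h was -0.53 to -0.20 without 1 library (not called in 6 of 10). ECRG4 at 6 h was -0.43 to -0.14 (called in 2 of 10). ROBO1 at 6 h was 0.67 to 0.86 (not called in 5 of 10). ROBO1 at 3 h was -0.0105 to 0.251, the negative value being the one without CD47- CD3+CD28+TSP1 at 3 h. The number of members was 417 with a ratio of 4 and 83 with a ratio of 16, 249 and 129 with a mean of 0.5 and 2 CPM, 158 with TMM-scaled sizes (all 158 among the 191), and 174 to 195 without 1 library. Members called at 6 h ranged from 66 in DESeq2 to 94 in limma voom and from 50 to 90 without 1 library, and at 3 h from 43 to 67 and from 30 to 59. The contrasts of treatments called 0 members in all alternatives, except 1 without a filter for low counts, for CD3+CD28+TSP1 against CD3+CD28 (BX640515.1, 1.63 log2, edgeR adjusted p = 0.024, with 106 counts in the CD47- CD3+CD28+TSP1 library at 3 h and 4 to 27 in the other CD47- libraries, and no member without that library), and 0 when time terms were left out (no replicate block). For list genes that were not members, 89 were called and 100 with a replicate block of paired libraries, which changed no count by over 1.5 times, and 85 to 92 without 1 library. The isoform share of FSTL5 was 47.6% when divided by length. Leaving out the UT library of CD47- cells left no value for CD3+CD28 against UT. The depth limits members in WT, where 61 had a mean at or under 3 counts per library.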

Other observations

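KCNT1, a sodium-activated potassium channel, was among the 11 members with too few counts to test. In CD47- libraries it was at 0.0800 to 0.285 CPM at 1 h, 0.866 to 1.32 CPM at 3 h and 1.85 to 2.69 CPM at 6 h. FUT7, a fucosyltransferase that builds selectin ligands, was at 1.45 to 3.10 CPM at 3 h and at 0.280 to 0.736 CPM in the other 7 CD47- libraries. STYK1, a kinase-like membrane protein, was at 0.0351 to 0.4002 CPM at 1 h and at 1.002 to 2.42 CPM at 3 and 6 h. These changes were not tested.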
